A study of Mus musculus with 11 samples.

Results

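The genes described here are 9 epithelial genes used to mark the ducts of the pancreas, namely *Krt7*, *Krt8*, *Krt18*, *Krt19*, *Sox9*, *Cftr*, *Spp1*, *Muc1* and *Epcam*. They were chosen by symbol, and all 9 were found among the 55536 genes measured in each library. The libraries were made from poly(A)-selected RNA of pancreatic islets of wild-type C57BL/6J female mice, aged 9 weeks at the start. Multiparous mice (multipara) went through 3 pregnancies, with islets taken 3 weeks after the final birth, and virgin mice of the same age were the controls. S-961, a peptide antagonist of the insulin receptor, was given by 2 intraperitoneal injections of 100 nmol/kg a day over 3 days to mice of 3 libraries labelled virgin S-961 and 4 labelled multipara S-961. The other libraries were 2 labelled virgin and 2 labelled multipara from mice without S-961. For S-961, the study's legend counts as many mice of each parity as there are libraries, while the labels tie no library to a mouse. For the untreated libraries no source used here gives the number of mice, so that their spread may in part be technical. The labels do not say whether treated and untreated libraries were prepared together, so that the treatment and any such difference cannot be told apart.

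Pancreatic ducts are tubes of epithelial cells that carry acinar enzymes to the gut and add bicarbonate and fluid to them. Their cells hold the keratins of simple epithelia, in which a type II keratin such as *Krt7* or *Krt8* pairs with a type I keratin such as *Krt18* or *Krt19* to form a filament. Duct cells are known to keep *Sox9*, a transcription factor of pancreatic progenitors, and to carry the chloride channel *Cftr* and the mucin *Muc1* at the surface facing the lumen. *Spp1* encodes osteopontin, a secreted matrix protein, and *Epcam* an adhesion molecule of epithelial cells. *Krt8*, *Krt18* and *Epcam* are also known from endocrine islet cells, so that only some of the 9 separate ducts from islets. In bulk RNA, fewer cells of a type and less RNA per cell cannot be told apart.

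The 3 keratins *Krt7*, *Krt8* and *Krt18* lie on chromosome 15, and the gap between *Krt8* and *Krt18*, which are read in opposite directions, is 23697 bp in the GENCODE M21 annotation of GRCm38. The gap between *Krt7* and *Krt8* is 566384 bp. Their departures from the group means, and that of *Epcam* on chromosome 17, were correlated across libraries, with the values given below, so that the bases upstream of the start are shown for *Krt7*, *Krt18* and *Epcam*. RefSeq windows (GRCm38.p6) were available for 7 of the 9 genes, and each was searched over the 250 bases before the start. Each sequence printed stops before the first base that GENCODE places in an exon of a coding transcript of the same gene. This removed 36 bases for *Krt18* and 1 for *Krt7*. The *Krt7* window lies inside the gene as GENCODE annotates it (101411043 to 101430313), so that it is upstream of the RefSeq start only. For *Krt8* the same rule removes the letters searched for, and its window is not printed. Capitals mark CACCTG or its reverse complement CAGGTG, letters that E-box binding proteins of epithelial genes are known to use.
Krt7 upstream (chr15:101412153-101412401, + strand): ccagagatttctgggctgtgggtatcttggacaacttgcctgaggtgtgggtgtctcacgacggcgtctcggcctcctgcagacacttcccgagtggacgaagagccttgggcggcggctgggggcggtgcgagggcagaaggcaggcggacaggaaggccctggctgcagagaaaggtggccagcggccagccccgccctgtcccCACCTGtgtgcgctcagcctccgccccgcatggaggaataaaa
Krt18 upstream (chr15:102027966-102028179, + strand): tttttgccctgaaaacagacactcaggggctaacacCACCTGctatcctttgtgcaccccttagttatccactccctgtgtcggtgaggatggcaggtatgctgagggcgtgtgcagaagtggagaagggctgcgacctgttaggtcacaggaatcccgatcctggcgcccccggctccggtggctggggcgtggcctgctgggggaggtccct
Epcam upstream (chr17:87635729-87635978, + strand): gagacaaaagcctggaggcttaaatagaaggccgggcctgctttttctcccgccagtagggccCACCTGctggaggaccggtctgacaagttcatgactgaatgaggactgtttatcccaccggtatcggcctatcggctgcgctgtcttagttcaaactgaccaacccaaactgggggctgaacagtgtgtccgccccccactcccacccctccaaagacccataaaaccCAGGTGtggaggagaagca

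These 6 letters began 44 bases before the RefSeq start in *Krt7* and 214 bases before it in *Krt18*. In *Epcam* they began 187 bases before the start on the strand of the gene and 19 bases before it on the other strand. CACCTG on either strand was present in the 250-base windows of 6 of the 7 genes (*Krt7*, *Krt8*, *Krt18*, *Epcam*, *Muc1* and *Spp1*) and in 17.2% of all 32851 windows. TATAAA was present in *Muc1* and *Spp1* and in 12.4% of all windows, and ACAAAG in *Krt18* and *Spp1* and in 16.5%. GGGCGG was found in *Cftr*, *Epcam*, *Krt7* and *Muc1* and in 32.7% of all windows. None of these motifs is contained in another. A gene was counted if any of its windows held the letters, whereas each percentage is a share of single windows. The gene counts and the percentages are therefore not measured alike. A match describes the letters only.

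Total counts ran from 22028507 to 32234146 per library, and levels are given as CPM (the count of a gene scaled to a common library size) after normalization over all 11 libraries together. The islet label fitted the data, since the 7 β cell genes summed to 120146 CPM or more and the 4 α cell genes to 12541 CPM or more in every library. The library labelled multipara S-961 4 stood apart from its group. By a chi-square statistic per gene over the counts, its distance was 9.77, 11.8 and 45.6 to replicates 1, 2 and 3 of virgin S-961, but 58.2, 80.3 and 95.9 to replicates 1, 2 and 3 of its own group. The sum of 5 proliferation genes was 8.36 CPM in this library, against 109 to 244 CPM in the other 3 multipara S-961 libraries and 7.54 to 23.7 CPM in the virgin S-961 libraries. In the library labelled multipara 1, without S-961, the sum of 7 macrophage genes was 895 CPM, against 77.4 to 207 CPM in all others. Of the 5 proliferation genes, 5 were above 0 for multipara over virgin with S-961 and had an unadjusted p under 0.05, among them *Cdk1* (log2 fold change 3.99) and *Mki67* (2.95), and 0 were called. When multipara S-961 4 was left out, 5 of 5 were called higher, where 3.16% of 16590 genes were called. That library was set apart in part by the low sum of these same 5 genes, so that the count is no test of them. Whether a label was exchanged cannot be told from the labels. An exchange of the S-961 group names for all their libraries would turn the sign of each parity difference with S-961 given here. An exchange of replicates 1 to 3 between the S-961 groups, with multipara S-961 4 kept in its group, would also turn it for *Krt19*, *Muc1* and *Sox9*. Other exchanges of only some libraries could change these values in other ways. The differences between S-961 and no treatment within each parity group, and the interaction, rest on the same labels. Calls for the 9 genes, and counts of the list of other duct genes, are therefore also given without multipara S-961 4. That library was set apart by its nearness to the virgin S-961 libraries over all genes, so that leaving it out favours wider parity differences. Calls gained in that fit, of any gene or list, are no test of the genes called. Values without multipara 1 are given as well, although such a fit leaves 1 untreated multipara library.

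The 9 genes fell into a pair of classes by abundance. Together they summed to between 603 and 984 CPM, and *Krt7*, *Krt8*, *Krt18*, *Epcam* and *Spp1* made up 97.7% to 99.4% of that sum. Per kilobase of the principal transcript, the mean level over the 4 groups was 109 CPM for *Krt18*, 72 for *Krt8*, 64.3 for *Krt7*, 53.2 for *Epcam* and 40.3 for *Spp1*. It was 2.35 CPM per kb for *Krt19*, 1.31 for *Muc1*, 0.26 for *Sox9* and 0.057 for *Cftr*. Ranges over the libraries overlapped between neighbours in this order, except between *Spp1*, whose lowest value was 17.1 CPM per kb, and *Krt19*, whose highest was 7.79 CPM per kb. *Krt19*, the keratin most often used to mark ducts, was thus present at 0.45% to 5.16% of the CPM of *Krt18*. The place of *Krt7* depends on the length used, since its principal transcript has 4094 bp and all its annotated exons together 7049 bp.

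**Figure D1:**
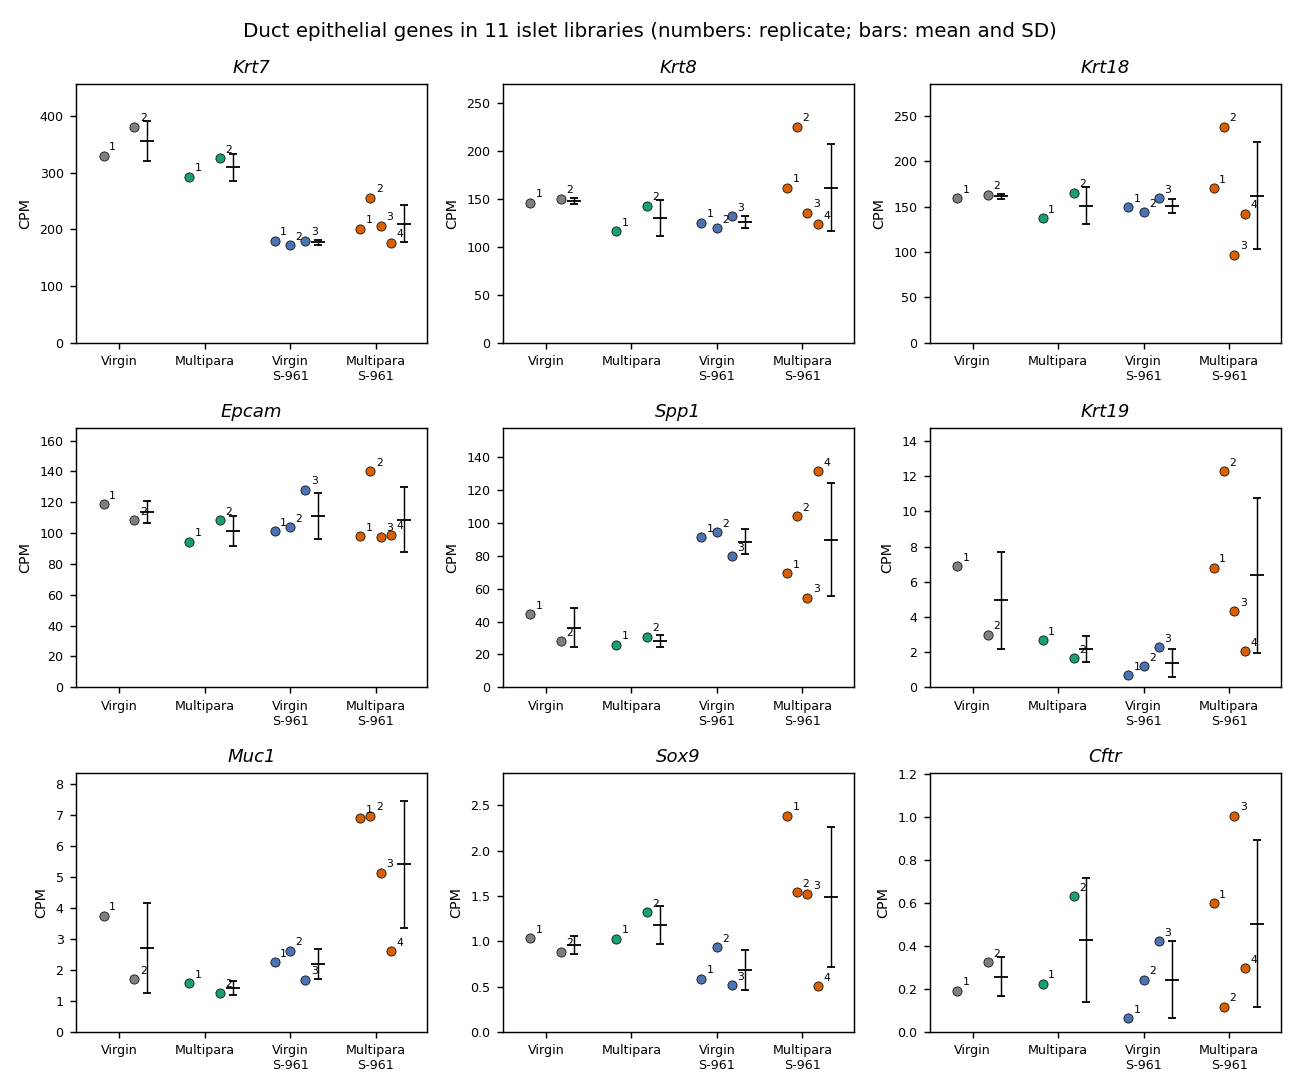
CPM of each of the 9 genes in the 11 libraries, by group, with the replicate number beside each point and the group mean and SD as a bar. *Krt7* was at 293 CPM or more in all untreated libraries and at 256 CPM or less in all S-961 libraries, and *Spp1* was at 44.7 CPM or less in the former and at 54.6 CPM or more in the latter.

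The first question was whether parity changed these genes without S-961. None of the 9 genes passed the test here, by edgeR, by DESeq2 or by edgeR without the library labelled multipara 1. Of the 9 genes, 8 had counts high enough to be tested (*Cftr* did not), 0 of them had an unadjusted p under 0.05, and 0 passed at an adjusted p of 0.05, as did 0% of the 15812 genes tested. An unadjusted p under 0.05 was reached by 5.62% of all genes. The smallest adjusted p among the 8 was 0.719 (edgeR quasi-likelihood test). The median log2 fold change, multipara over virgin, was −0.19 over the 8 genes and 0.02 over all genes.

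Among the keratins, virgin *Krt7* was 330 and 381 CPM, and multipara *Krt7* was 293 and 326 CPM. *Krt8* was at 146 and 150 CPM against 116 and 143 CPM, and *Krt19* at 6.89 and 2.98 CPM against 2.68 and 1.64 CPM. In these 3 genes, as in *Muc1* and *Epcam*, both multipara values lay below both virgin values, although in *Epcam* the nearest values were 108.3 and 108.5 CPM. Such a gap with multipara lower was seen in 5 of the 8 genes tested here and in 18.8% of all genes tested. The log2 fold change was −0.20 for *Krt7* (SE 0.11), −0.19 for *Krt8* (SE 0.11) and −1.17 for *Krt19* (SE 0.52, 95% interval −2.55 to 0.21). The intervals of *Krt7* (−0.50 to 0.10) and *Krt8* (−0.47 to 0.10) were narrow, whereas that of *Krt19* was wide.

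*Muc1*, the surface mucin, was at 3.75 and 1.69 CPM in virgin and 1.56 and 1.26 CPM in multipara libraries, with a log2 fold change of −0.93 (SE 0.47). *Epcam* was at 119 and 108.5 CPM against 94.4 and 108.3 CPM, with a log2 fold change of −0.16 (SE 0.091). In *Krt18*, *Spp1*, *Sox9* and *Cftr* the groups overlapped. *Krt18* was at 160 and 163 CPM against 137 and 165 CPM, and *Spp1* at 44.7 and 28.1 CPM against 25.8 and 30.7 CPM. *Sox9* was at 1.03 and 0.89 CPM against 1.03 and 1.32 CPM, and *Cftr* at 0.19 and 0.32 CPM against 0.22 and 0.63 CPM. The library labelled multipara 1, with its high macrophage sum, also had the highest level of the mesothelial gene *Upk3b*, at 2.37 CPM. Without it the log2 fold change was −1.61 for *Krt19*, −1.13 for *Muc1*, −0.15 for *Krt7*, −0.07 for *Krt8* and −0.09 for *Epcam*, and it was 0.44 for *Sox9*, −0.27 for *Spp1* and 0.01 for *Krt18*. Without virgin 1, in which *Krt19* and *Muc1* were highest of the 4 untreated libraries, the value was −0.46 for *Krt19* and −0.26 for *Muc1*.

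The second question was whether the genes differed by parity in mice that had received S-961. All of the 9 genes but *Krt7* and *Epcam* had their highest group mean in the libraries labelled multipara S-961. The next mean was close for *Krt18* (161.9 against 161.4 CPM in untreated virgin) and *Spp1* (89.9 against 88.6 CPM in virgin S-961). By edgeR 0 of the 9 genes passed at an adjusted p of 0.05, as did 0% of 16784 genes. An unadjusted p under 0.05 was reached by 2 of the 9 (*Krt19* and *Muc1*) and by 9.71% of all genes. DESeq2 called the same 2 genes, with 2.2% of all genes called. The median log2 fold change was 0.38 over the 9 genes and 0.0035 over all genes, and 8 of the 9 were above 0. In 0 of the 9 genes were the groups free of overlap (background 5.23% with multipara higher and 3.64% with multipara lower).

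*Krt19* was at 0.68, 1.21 and 2.26 CPM in virgin S-961 1 to 3. In multipara S-961 1 to 4 it was at 6.80, 12.3, 4.32 and 2.04 CPM. The first 3 multipara values lay above all virgin values, and the value of the library labelled multipara S-961 4 lay among them. The mean was 1.38 ± 0.81 CPM (SD, n = 3) in virgin and 6.36 ± 4.40 CPM (SD, n = 4) in multipara libraries. The log2 fold change was 2.21 (SE 0.63, 95% interval 0.78 to 3.64), with an adjusted p of 0.324 (edgeR). Without multipara S-961 4 it was 2.51 with an adjusted p of 0.0434 (edgeR), and 3.16% of 16590 genes were called in that fit. That library was left out for its likeness to the virgin S-961 libraries, so that the call is no test of *Krt19*, nor of *Muc1* below.

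*Muc1* was at 2.26, 2.63 and 1.68 CPM in virgin S-961 1 to 3 and at 6.91, 6.98, 5.15 and 2.60 CPM in multipara S-961 1 to 4. Again replicates 1 to 3 of multipara lay above all virgin libraries, and replicate 4 lay within their range. The log2 fold change was 1.32 (SE 0.36, 95% interval 0.50 to 2.15), with an adjusted p of 0.315 (edgeR) and, without multipara S-961 4, 1.56 with an adjusted p of 0.0150. DESeq2 on all 7 libraries gave an adjusted p of 0.0103 for *Krt19* and 0.0275 for *Muc1*. The plot of both genes under 14 settings shows that their direction held in each.

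**Figure D2:**
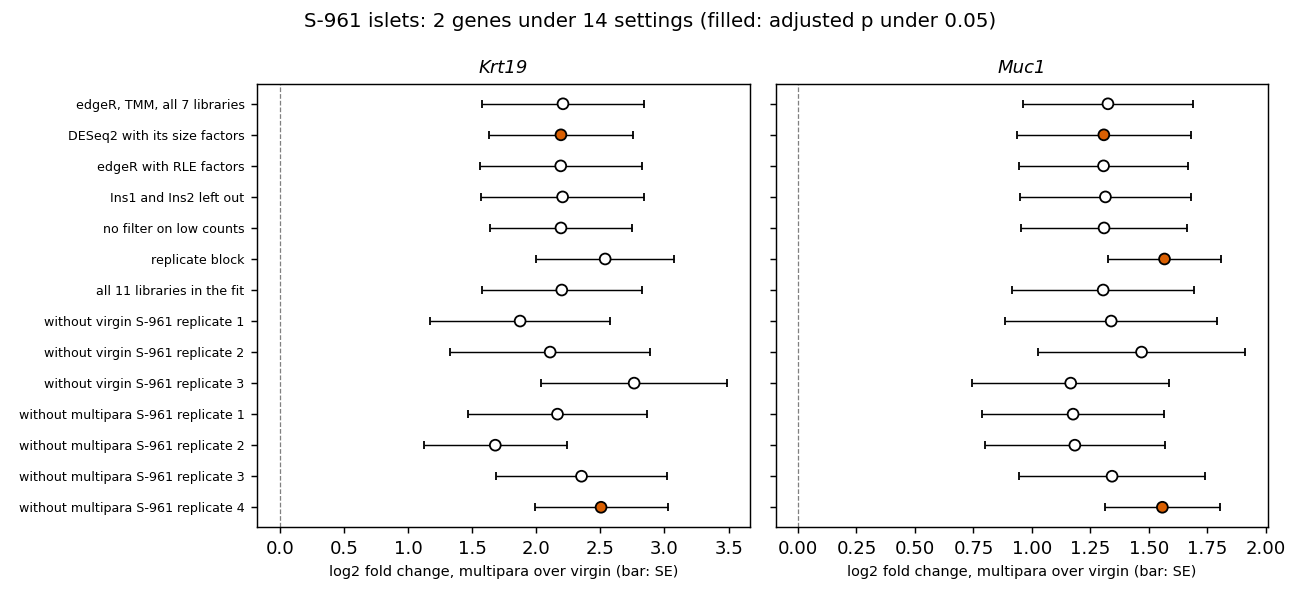
log2 fold change of *Krt19* and *Muc1*, multipara S-961 over virgin S-961, under 14 analysis settings, with the SE as a bar and filled points for an adjusted p under 0.05. All points lie above 0, and filled points appear for *Krt19* with DESeq2 and without multipara replicate 4, and for *Muc1* with these 2 settings and with the replicate block.

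The transcription factor *Sox9* was at 0.59, 0.94 and 0.52 CPM in virgin S-961 and at 2.39, 1.54, 1.52 and 0.50 CPM in multipara S-961 libraries. As in *Krt19* and *Muc1*, multipara replicates 1 to 3 lay above all virgin values and replicate 4 did not. For *Sox9*, replicate 4 was the lowest of the 7 libraries. Its log2 fold change was 1.15 (SE 0.52, 95% interval −0.03 to 2.32, adjusted p = 0.524 by edgeR), and 1.43 without that replicate (adjusted p = 0.101). *Cftr*, the chloride channel, was at 0.062, 0.24 and 0.42 CPM in virgin and 0.60, 0.12, 1.0 and 0.30 CPM in multipara libraries, and the groups overlapped. Over all libraries *Cftr* had 2 to 39 counts and *Sox9* 16 to 88 counts, so that counting error alone is large for *Cftr*.

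The abundant genes moved less. *Krt8* was at 125, 120 and 132 CPM in virgin S-961 and at 162, 225, 135 and 124 CPM in multipara S-961 libraries (log2 fold change 0.38, SE 0.20). *Krt7* was at 180, 172 and 180 CPM against 202, 256, 206 and 177 CPM (log2 fold change 0.26, SE 0.15). In both keratins replicates 1 to 3 of multipara exceeded every virgin value and replicate 4 did not, and without it the values were 0.49 for *Krt8* and 0.34 for *Krt7*, neither of them called. Without multipara S-961 2, which had the highest level of both, the values were 0.18 for *Krt8* and 0.16 for *Krt7*. *Krt18* was at 150, 144 and 159 CPM against 170, 238, 97.2 and 142 CPM, and its log2 fold change of 0.11 had a 95% interval of −0.46 to 0.69. *Spp1* was at 91.4, 94.5 and 79.8 CPM against 69.5, 104, 54.6 and 131 CPM, and *Epcam* at 101, 104 and 128 CPM against 97.8, 140, 97.5 and 98.8 CPM. For these last 3 genes the multipara libraries lay on both sides of the virgin libraries, and the intervals of *Spp1* (−0.56 to 0.63) and *Epcam* (−0.40 to 0.36) bound any difference at less than a doubling. Without multipara S-961 4 the values were 0.18 for *Krt18*, −0.20 for *Spp1*, 0.03 for *Epcam* and 1.27 for *Cftr*, and 0 of these 4 were called.

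The ratio of *Krt8* to *Krt18*, partners in one filament, was 0.83 to 0.95 in all libraries but multipara S-961 3, where it was 1.39. In that library *Krt18* was at its lowest level, and *Krt20* and *Krt80* were each at 15.1 CPM, against at most 1.77 and 8.79 CPM elsewhere. *Krt5* and *Krt14*, keratins of stratified epithelia, were at 0 in all libraries.

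Markers of other cells also differed between these groups. The sum of 7 stromal genes was 64.9, 68.0 and 69.6 CPM in virgin S-961 and 157, 140, 286 and 129 CPM in multipara S-961 1 to 4, and 6 of the 7 had an unadjusted p under 0.05. The stromal sum of replicate 4 lay above all virgin values. The sum of 11 acinar enzyme and acinar factor genes was 4948, 6523 and 1744 CPM in virgin S-961, and 11552, 10161, 7869 and 4282 CPM in multipara S-961 libraries. Of the 11, 3 had an unadjusted p under 0.05 and were higher. The 4 α cell genes summed to 12541, 13239 and 13399 CPM in virgin S-961, and to 18623, 21699, 18377 and 14589 CPM in multipara S-961 libraries, and 4 of 4 had an unadjusted p under 0.05. Without S-961, 4 of 4 α cell genes lay below 0 for multipara over virgin, 3 with an unadjusted p under 0.05, and for the interaction 4 of 4 lay above 0 with an unadjusted p under 0.05. None of these stromal, acinar or α cell genes was called by edgeR in those comparisons. For parity with S-961 but without multipara S-961 4, 5 of 7 stromal, 0 of 11 acinar and 0 of 4 α cell genes were called, against 3.16% of all genes. For parity in untreated libraries but without multipara 1, 7 of 7 stromal genes lay below 0, with a median log2 fold change of −0.99. Of the mesothelial genes *Msln* was at 34.5 to 80.8 CPM and the defining marker *Upk3b* at 0.72 CPM or less in the S-961 libraries, and the 7 macrophage genes summed to 77.4 to 166 CPM in the S-961 libraries. The part of acinar, stromal and α cell RNA in the values of *Krt19*, *Muc1* and *Sox9* was not tested.

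**Figure D3:**
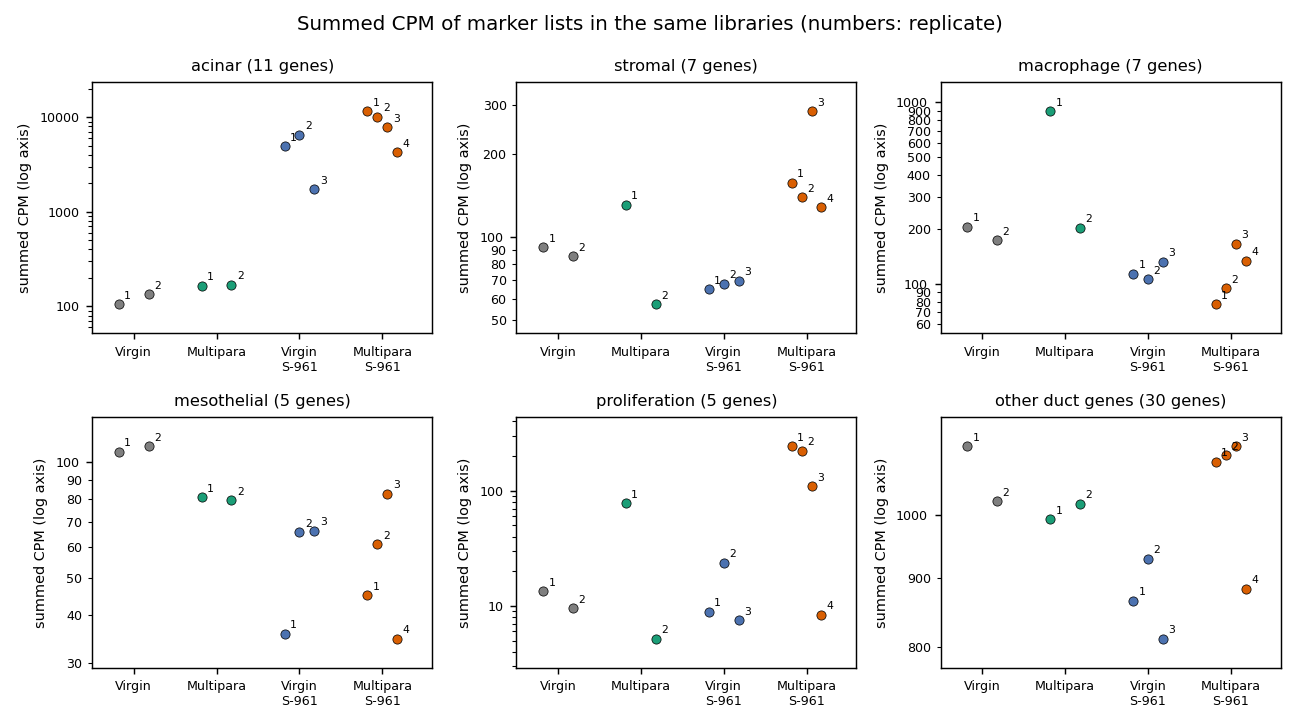
Summed CPM on log axes of 5 marker lists of other cells or of proliferation and of 30 other duct genes in the 11 libraries, with replicate numbers. The acinar sum was 106 to 169 CPM in untreated and 1744 to 11552 CPM in S-961 libraries, and multipara 1 without S-961 had the highest macrophage sum, 895 CPM.

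The third question was how the genes differed between S-961 and no treatment within each parity group. Among virgin libraries *Krt7* was lower and *Spp1* higher with S-961. These were the 2 of 9 genes called, where 36.5% of 17996 genes were called, 18.8% higher and 17.6% lower. Among multipara libraries 3 of 9 genes were called, *Krt7* lower and *Spp1* and *Muc1* higher, where 37.6% of 17996 genes were called, 18.2% higher and 19.4% lower. By an unadjusted p under 0.05, 3 of 9 genes in virgin and 3 of 9 in multipara libraries passed, against 46.4% and 47.8% of all genes. The groups did not overlap in 5 of the 9 genes in virgin libraries, 1 higher and 4 lower with S-961, where 32.8% of all genes were higher and 35.5% lower in this way. In multipara libraries they did not overlap in 3 genes, 2 higher and 1 lower, where 24.5% of all genes were higher and 24.5% lower. None of these shares of the 9 genes is far above the background. Without multipara S-961 4, the 3 calls in multipara libraries held and *Krt19* was added, where 35.8% of all genes were called. Without multipara 1 the log2 fold change in multipara libraries was −0.63 for *Krt7*, 1.55 for *Spp1* and 2.10 for *Muc1*. The median log2 fold change, S-961 over untreated, was −0.24 in virgin and 0.32 in multipara libraries over the 9 genes, against −0.04 and 0.03 over all genes.

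*Krt7* was at 330 and 381 CPM without S-961 and at 172 to 180 CPM with it in virgin libraries. In multipara libraries it was at 293 and 326 CPM without S-961 and at 177 to 256 CPM with it. All untreated libraries thus lay above all S-961 libraries. The log2 fold change was −1.0 in virgin (SE 0.16, 95% interval −1.35 to −0.66, adjusted p = 0.000991 by edgeR) and −0.56 in multipara libraries (SE 0.15, 95% interval −0.89 to −0.23, adjusted p = 0.0142). The call in multipara was lost without multipara 2, where the value was −0.47 with an adjusted p of 0.111, and in a fit of the 6 multipara libraries alone, with an adjusted p of 0.0605. The annotated antisense gene *Gm671* shares 77 exonic bases with *Krt7* and had 2 to 27 counts, against 5169 or more for *Krt7*. The 7 β cell genes summed to 455036 to 612396 CPM in untreated and 120146 to 225943 CPM in S-961 libraries. Of these 7, 3 were called lower and 2 higher in each parity group, against 36.5% and 37.6% of all genes called. The 4 α cell genes summed to 23812 to 50455 CPM in untreated and 12541 to 21699 CPM in S-961 libraries. The part of endocrine RNA in *Krt7* was not tested.

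*Spp1* was at 44.7 and 28.1 CPM in untreated virgin and at 91.4, 94.5 and 79.8 CPM in virgin S-961 libraries. In multipara libraries it was at 25.8 and 30.7 CPM without S-961 and at 69.5, 104, 54.6 and 131 CPM with it. S-961 libraries were higher without overlap in both parity groups. The log2 fold change was 1.28 in virgin (SE 0.34, 95% interval 0.54 to 2.03, adjusted p = 0.0130 by edgeR) and 1.67 in multipara libraries (SE 0.34, 95% interval 0.93 to 2.41, adjusted p = 0.00343). Without virgin 2 the virgin value was 0.99 with an adjusted p of 0.139. *Spp1* is also known from macrophages and other cells. The macrophage sum was 107 to 132 CPM with and 174 and 207 CPM without S-961 in virgin libraries, and 77.4 to 166 CPM with and 895 and 204 CPM without it in multipara libraries. The part of other cells in *Spp1* was not tested.

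*Muc1* was at 3.75 and 1.69 CPM without and 1.68 to 2.63 CPM with S-961 in virgin libraries, where the groups overlapped and the log2 fold change was −0.31 (SE 0.45). In multipara libraries it was at 1.56 and 1.26 CPM without and 2.60 to 6.98 CPM with S-961, with no overlap and a log2 fold change of 1.93 (SE 0.48, 95% interval 0.87 to 2.99, adjusted p = 0.0100 by edgeR). The adjusted p was 0.0535 without multipara 1 and 0.0703 without multipara 2. *Krt19* had a log2 fold change of −1.83 in virgin (SE 0.69, adjusted p = 0.0591) and 1.55 in multipara libraries (SE 0.71, adjusted p = 0.109), so that both missed the threshold in opposite directions. In virgin libraries *Krt19* was called without virgin S-961 3 (adjusted p = 0.0385), in the fit of the 5 virgin libraries alone (0.0198), by DESeq2 (0.0269) and without a filter on low counts (0.0333). Without virgin 1 its value was −1.11 with an adjusted p of 0.401. In multipara libraries it was called without multipara S-961 4, with a log2 fold change of 1.84 and an adjusted p of 0.0430, and was at 1.05 (adjusted p = 0.214) without multipara S-961 2. The virgin value of *Muc1* was 0.37 without virgin 1. *Krt8*, *Krt18*, *Sox9*, *Cftr* and *Epcam* were called in neither parity group, and the interval of *Epcam* was −0.43 to 0.37 in virgin and −0.28 to 0.48 in multipara libraries.

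Of the 11 acinar genes, 10 were called higher in each parity group, with a median log2 fold change of 5.70 in virgin and 5.94 in multipara libraries. *Cpa1*, a pancreatic digestive enzyme, was at 5.20 to 15.3 CPM in untreated and 205 to 1288 CPM in S-961 libraries. The acinar transcription factor *Ptf1a* was at 0.19 CPM or less in untreated and 0.12 to 1.65 CPM in S-961 libraries. The part of exocrine RNA in *Spp1* and *Muc1* was not tested.

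**Figure D4:**
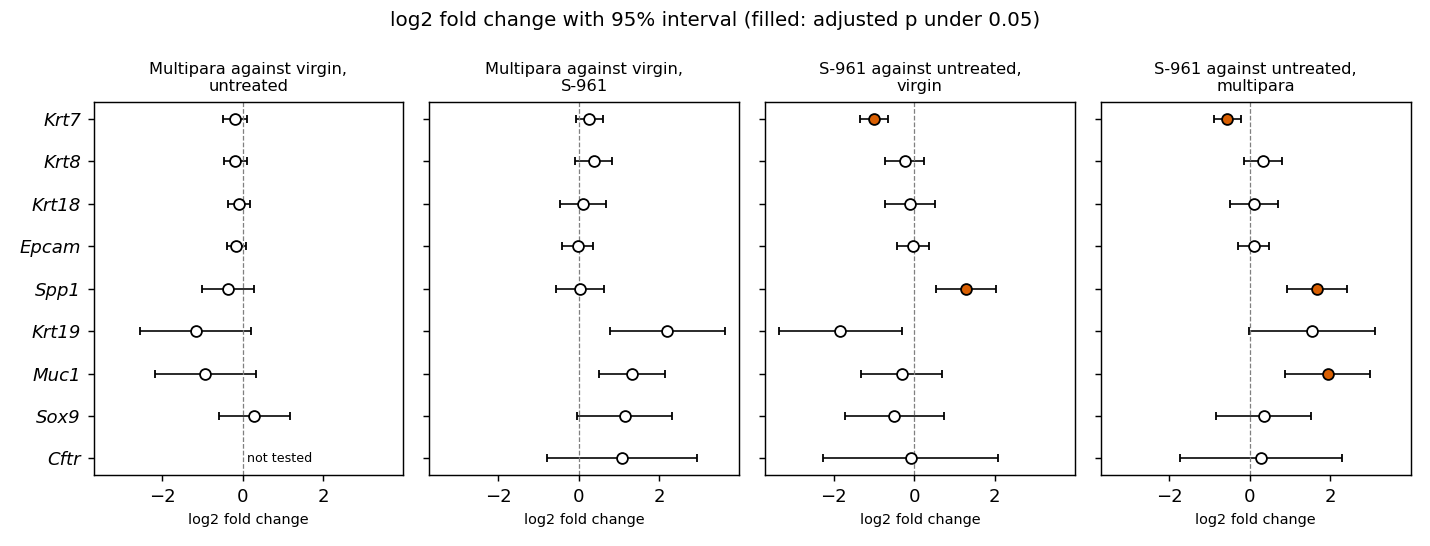
log2 fold change with its 95% interval for the 9 genes in 4 comparisons, with filled points for an adjusted p under 0.05 by edgeR. Filled points are *Krt7* (−1.0) and *Spp1* (1.28) for S-961 in virgin libraries, and *Krt7* (−0.56), *Spp1* (1.67) and *Muc1* (1.93) for S-961 in multipara libraries, while the parity comparisons have none.

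The last comparison was the interaction, that is, whether the effect of S-961 differed by parity. By edgeR 0 of the 9 genes passed at an adjusted p of 0.05, as did 0% of 17996 genes, and DESeq2 called 0 of the 9. An unadjusted p under 0.05 was reached by *Krt19* and *Muc1*, 2 of the 9, and by 6.55% of all genes. The difference of log2 fold changes was 3.38 for *Krt19* (SE 1.0, 95% interval 1.18 to 5.58, adjusted p = 0.568) and 2.25 for *Muc1* (SE 0.65, 95% interval 0.82 to 3.67, adjusted p = 0.555). Without multipara S-961 4 the adjusted p was 0.120 for *Krt19* and 0.0929 for *Muc1*. All 9 genes were above 0, with a median of 0.45 against −0.04 over all genes, but *Cftr* was at −0.23 without multipara 1. *Krt7* was at 0.45 (95% interval −0.04 to 0.93) and *Spp1* at 0.39 (95% interval −0.61 to 1.38), so that a difference between the parity groups was not shown for either gene. The comparisons share libraries, and the S-961 and untreated parity comparisons are the parts from which the interaction is made.

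Of 30 other genes known from duct epithelium, 28 were tested for parity with S-961, 0 were called by edgeR, and 23 lay above and 5 below 0, with a median log2 fold change of 0.32. The 3 with the smallest p were *Prom1*, a surface protein of apical membranes (log2 fold change 0.96), the secreted trefoil peptide *Tff2* (1.04) and the tight junction gene *Cldn4* (0.80). *Prom1* was at 81.4, 60.0 and 44.3 CPM in virgin S-961 and 136, 160, 112 and 67.2 CPM in multipara S-961 libraries, and replicate 4 was again the lowest of its group. Without that replicate 1 of 28 was called (*Prom1*, log2 fold change 1.16, adjusted p = 0.0375 by edgeR), where 3.16% of all genes were called, and 21 lay above and 7 below 0. Without S-961, 27 were tested, 0 were called, and 5 lay above and 22 below 0, with a median of −0.15. The smallest p values there belonged to *Dcdc2a* (log2 fold change −0.48), *Ehf* (−0.48) and the matrix metalloprotease *Mmp7* (−2.97), which was at 8.38 CPM in virgin 1 and at 1.77 CPM or less in the other 3 libraries. Without multipara 1, 0 of 27 were called, and 8 lay above and 19 below 0. For the interaction 0 of 29 were called, and *Mmp7*, *Prom1* and *Cldn4* had the smallest p values. The interaction count was also 0 without multipara S-961 4 and without multipara 1.

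Between S-961 and no treatment, 3 of 29 other duct genes were called higher and 5 lower in virgin libraries, and 8 higher and 4 lower in multipara libraries. That is 8 of 29 in virgin and 12 of 29 in multipara libraries, against 36.5% and 37.6% of all genes. In multipara libraries 7 were called higher and 3 lower without multipara S-961 4, where 35.8% of all genes were called. Without multipara 1, 19 lay above and 10 below 0 there, with a median log2 fold change of 0.61. In both parity groups, *Slc12a2*, a sodium, potassium and chloride cotransporter that feeds fluid secretion, the cation channel *Pkd2* and *Tff2* were higher. *Tff2* was at 0.93 to 1.80 CPM in untreated and 5.11 to 22.8 CPM in S-961 libraries, and the part of exocrine RNA in *Tff2* was not tested. *Slc12a2* was at 8.67 to 11.8 CPM in untreated and 19.4 to 27.2 CPM in S-961 libraries, and its log2 fold change was 1.33 in virgin and 1.05 in multipara libraries. *Pkd2* was at 20.2 to 29.8 CPM in untreated and 50.1 to 79.1 CPM in S-961 libraries. The tight junction genes *Cldn3* and *Cldn4* and *Dcdc2a* were called lower in both, and *Cldn4* was at 59.1 to 89.5 CPM in untreated and 19.5 to 57.6 CPM in S-961 libraries. In multipara libraries the call of *Cldn4* was lost without multipara S-961 4 (log2 fold change −0.68, adjusted p = 0.0545 by edgeR). Without multipara 1 the values there were −0.62 for *Cldn3*, −1.03 for *Cldn4* and −0.92 for *Dcdc2a*. *Tspan8* was among those called lower in virgin libraries (log2 fold change −1.60), and *Cldn7* was called lower (−0.52) and the bicarbonate cotransporter *Slc4a4* higher (0.87) in multipara libraries.

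Across the 11 libraries the genes can be described by how far each departed from the mean of its group. Pearson's r of these departures (log2 CPM, 11 libraries) was 0.90 for *Krt7* and *Krt8*, 0.84 for *Krt8* and *Krt18* and 0.82 for *Krt8* and *Epcam*, all of them pairs with *Krt8*. Among the 3 genes whose upstream bases stand above, it was 0.60 for *Krt7* and *Krt18*, 0.69 for *Krt7* and *Epcam* and 0.72 for *Krt18* and *Epcam*. Without multipara S-961 4 the values of the pairs with *Krt8* were 0.84, 0.94 and 0.86 over 10 libraries, and those of the other 3 pairs were 0.67, 0.71 and 0.72. *Muc1* and *Sox9* had an r of 0.80, which fell to 0.46 without that library. The points share normalization within a library, and the values describe these libraries only. The gene with the most similar departures was *Flot2* for *Krt7* (r = 0.98), *Calm2* for *Krt8* (0.98), *Toe1* for *Krt18* (0.99), *Rbm48* for *Krt19* (0.95) and *Tmpo* for *Sox9* (0.97). It was *Sphk2* for *Cftr* (0.97), *Fyttd1* for *Spp1* (0.96) and *Gucy1b1* for *Muc1* (0.95). Each is the highest of all genes at a mean log2 CPM of 2 or more, and was picked for that.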

How the data were processed

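Islet RNA of 11 samples was measured by bulk RNA-seq from libraries of a stranded poly(A) kit, for RNA with an integrity number above 8. The authors deposited expected counts (estimated counts per gene, not normalized) for 55536 genes per library. The submitters' processing notes name STAR, RSEM and the build GRCm38 (mm10). Their versions and the strand setting of the counting are not given in the sources used here. Between 4449 and 5162 genes per library had values that were not whole, since RSEM divides reads between genes, and all values were rounded. The *Krt8* pseudogene *Krt8-ps* had 1.02 to 11.3 counts.

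Groups were taken from the labels. Tests used edgeR 4.0.16 in R 4.3.3 (TMM, filterByExpr with minimum count 10 and minimum total 15, quasi-likelihood F-test, two-sided, Benjamini-Hochberg over all genes tested, threshold 0.05). For parity the fit held the libraries compared, and for the other comparisons all 11. Standard errors came from the fold change and F statistic, and intervals are 95%. Total counts were 22028507 to 32234146, and the precision given covers the spread between libraries. Alternatives were DESeq2 1.42.0, RLE factors, *Ins1* and *Ins2* left out, no filter, a replicate block, other samples in the fit, and each replicate left out. The scripts were tested on simulated data. Figures were drawn with matplotlib 3.10.9 and tables with pandas 2.3.3 in Python 3.11.15.

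The genes and lists were chosen with earlier results of these data known. Named genes were the 9 genes, of the other duct genes those past the threshold (at most the 4 with the smallest p per direction, or the 3 with the smallest p where none passed), and for each of the 9 the most similar gene (not reported here for *Epcam*) at a mean log2 CPM of 2 or more, with a prior count of 2. Further genes named from the marker lists were chosen after their values were seen. Coordinates are from GENCODE M21 and upstream sequences from RefSeq.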

Additional observations from a re-analysis of the deposited data

Results flagged for a closer look

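*Epcam* in the multipara S-961 group was flagged because 1 sample lay far from the others. Replicate 2 was at 140 CPM, while replicates 1, 3 and 4 were at 97.8, 97.5 and 98.8 CPM. The gap to the nearest sample was 0.97 of the range of the group, above Dixon's 95% critical value for 4 samples. Chance flags about 1 in 20 such groups, and 9 genes were examined in this group. Replicate 2 also had the highest *Krt7*, *Krt8*, *Krt18* and *Krt19* of its group. The cause was not tested.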

How the results depend on the processing

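Counts of the 9 genes called depended on the settings in 3 of 5 comparisons. For parity with S-961 the count was 0 by edgeR and 2 by DESeq2 (*Krt19* and *Muc1*, with 2.2% of all genes called). It was 0 to 2 when each replicate was left out in turn (2 without multipara S-961 4, with 3.16%). For S-961 in virgin libraries it was 2 (36.5% of all genes) and 3 without virgin S-961 3 (34.1%). It was also 3 by DESeq2 (39.7%), without a filter (20.9%) and in the fit of the libraries compared (51.2%). For S-961 in multipara libraries it was 3 (37.6%), and 4 without multipara S-961 4 (35.8%). *Krt7* lost its call there in the fit of the libraries compared (25.4% of all genes called) and with the replicate block. Some calls in both parity groups were also lost in fits that left 1 untreated library. In such fits *Spp1* in virgin fell to 0.99 without virgin 2, and *Krt7* in multipara was at −0.47 without multipara 2. For untreated parity and the interaction it was 0 under every alternative run. The labels do not say whether replicate numbers pair the samples, and the values cannot decide it in groups this small. Same-numbered S-961 libraries had correlations of departures of 0.056, 0.012 and 0.093, and those with different numbers −0.082 to 0.070. For untreated libraries the correlation was 0.28 for same-numbered pairs and −0.28 for the others, which in groups of 2 mirror each other by construction. With the number as a replicate block, the count for parity with S-961 was 1 (*Muc1*, adjusted p = 0.0293, with 2.04% of all genes called) and *Krt7* for S-961 in multipara had an adjusted p of 0.0539.

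Of 545 values of the 9 genes under alternatives, 514 kept the direction, 10 became called, 6 lost the call and 31 turned, all of them where the reported value was 0.36 or less in size. With the block, log2 fold changes turned for parity with S-961 in *Spp1* (−0.25) and *Epcam* (0.0187), for S-961 in virgin in *Krt18* (0.0720) and for S-961 in multipara in *Cftr* (−0.0848). Leaving out replicates in turn gave ranges through 0. For parity with S-961 these were −0.13 to 0.29 for *Krt18*, −0.20 to 0.21 for *Spp1* and −0.16 to 0.10 for *Epcam*. For untreated parity they were −0.22 to 0.0135 for *Krt18* and −0.66 to 0.0069 for *Spp1*. For S-961 in virgin they were −0.74 to 0.36 for *Cftr*, −0.78 to 0.37 for *Muc1* and −0.15 to 0.0357 for *Epcam*. For S-961 in multipara they were −0.11 to 0.28 for *Krt18*, −0.32 to 1.17 for *Cftr* and −0.0146 to 0.21 for *Epcam*. For the interaction they were −0.0414 to 0.38 for *Krt18*, −0.23 to 1.26 for *Cftr* and −0.0098 to 0.25 for *Epcam*. The cause was not tested. Groups of 2 libraries and the low counts of *Cftr* and *Sox9* limit what can be seen.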
